A study of Mus musculus with 12 samples.

Results

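The genes described here are the nuclear genes for subunits of the respiratory chain and ATP synthase, which together carry out oxidative phosphorylation. They were chosen by symbol among the protein-coding genes of the count table: Nduf followed by a, b, c, s or v and a digit, Sdha to Sdhd, Uqcr, Cox4 to Cox8, and Atp5. After 10 pseudogenes were left out, 84 of the 41214 genes in the table remained, of which 37 belong to complex I, 4 to complex II, 8 to complex III, 18 to complex IV and 17 to complex V. Of these, 82 passed the filter on low counts and were tested. Cox7b2 and Cox8c had 0 counts in every library. Cox4i2 passed the filter only through the coronary libraries and Cox8b only through the E17 endocardial libraries.

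The series is bulk RNA-seq, in 12 libraries, of endothelium that was sorted out of embryonic mouse ventricles. All embryos carried Nes-gfp (Tg/0), a green fluorescent reporter under nestin regulatory sequence, and viable Ter119- CD45- CD31+ cells were taken. Hearts were collected at E13.5 or E17.5, labelled E13 and E17. The E13 endocardial group (4 libraries) was GFP-low and Emcn-high, and the E13 coronary group (4 libraries) was GFP+. The E17 embryos also carried Nes-CreER (Tg/0) and R26 (tom/+) and received 0.1 ug tamoxifen at E15.5, so stage, genotype and treatment cannot be told apart. The E17 endocardial group (2 libraries) came from a GFP+ gate, so in endocardial libraries the sort gate also changed with stage and cannot be told apart from it. The labels give an arterial and capillary gate and a venous gate for E17 coronary cells, both Emcn-low, and do not say which gave the E17 coronary group (2 libraries). Each batch label joins 1 endocardial and 1 coronary library of a stage, so stage and batch cannot be told apart either. Nothing in the labels says whether libraries of a group came from separate litters, so p-values reflect only how far these libraries spread, which may be technical.

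Oxidative phosphorylation passes electrons from NADH through complex I, or from succinate through complex II, to coenzyme Q, then through complex III and cytochrome c to complex IV, where oxygen is reduced. Complexes I, III and IV pump protons out of the mitochondrial matrix, and complex V, the ATP synthase, makes ATP as they flow back. Complex II is encoded wholly in the nucleus, while the others also hold subunits encoded in mitochondrial DNA. Endothelial cells are known for making much of their ATP by glycolysis, and some subunits of complex IV exist as a general and a tissue-restricted isoform.

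Library totals ran from 14973633 to 27360653 expected counts, with 17818 to 19240 genes seen per library. The endothelial markers were present in all libraries: Pecam1, which encodes CD31, stood between 861 and 1310 CPM (library-size-scaled counts) at E13 and between 1490 and 2140 CPM at E17. They were not even between the populations: of 8 endothelial markers, 1 was higher and 7 were lower in coronary libraries at E13. At E17, 4 were higher and 3 lower. Their sum at E13 was 8050 to 8970 CPM in endocardial and 5240 to 7110 CPM in coronary libraries. At E17 it was 8100 to 8520 CPM and 10100 to 11400 CPM. Markers of other cells also differed between the groups. The 11 mural markers summed at E13 to 246 to 269 CPM in the endocardial and 383 to 767 CPM in the coronary libraries, and at E17 to 177 to 178 CPM and 860 to 1120 CPM. The 7 epicardial markers summed to 16.7 to 20.8, 80.5 to 94.0, 13.6 to 15.2 and 144 to 157 CPM in the same order. Wt1 alone gave 39.8 to 76.9 CPM of that sum in E13 coronary and 103 and 134 CPM in E17 coronary libraries. In coronary libraries 5 epicardial markers were higher and 1 was lower at E13, and 4 were higher at E17. Of the mural markers 7 were higher at E13 and 9 at E17, and none were lower. Abcc9 alone gave 118 to 195 CPM of the mural sum in E13 coronary and 539 and 515 CPM in E17 coronary libraries. Of the 10 fibroblast markers, 8 were higher and 1 was lower in coronary libraries at E13, and 4 were higher and 3 lower at E17. Among them Col1a1 stood at 9.22 to 24.6, 285 to 1080, 24.3 to 38.3 and 450 to 1010 CPM, while Fn1 stood at 12700 to 14800, 3280 to 5180, 7300 to 8050 and 1380 to 1650 CPM. The fibroblast sum was lower in every coronary library than in the endocardial libraries of its stage (14500 to 16800, 5920 to 12200, 9510 to 10500 and 3560 to 6460 CPM). Over all tested genes 30.1% were higher and 29.9% lower in coronary libraries at E13, and 26.5% and 26.1% at E17. The mural marker Higd1b, the epicardial Aldh1a2 and the fibroblast Tcf21 passed the filter on low counts only through coronary libraries. Their part in the marker counts is thus no test. The 15 cardiomyocyte markers overlapped between all 4 groups, from 195 to 447 CPM. The leukocyte marker Ptprc, which encodes CD45, was at or below 0.437 CPM.

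At E13 most nuclear oxidative phosphorylation genes were more abundant in coronary than in endocardial libraries. Of the 82 tested, 51 rose and 3 fell (edgeR quasi-likelihood test, Benjamini-Hochberg adjusted p below 0.05 over all 15171 tested genes), while 28 did not pass. Cox4i2, which the filter let in through the coronary libraries, is among the members called higher at both stages. Over all tested genes, 30.1% were higher and 29.9% were lower in the same comparison. The median log2 fold change of the members was 0.19, and that of all tested genes was -0.02. The differences were mostly small: apart from Cox4i2 and Ndufa4l2, no member that rose did so by more than 0.58 on the log2 scale. Within the batches, 56 of the 82 members were higher in the coronary library in all 4 batches and 7 were lower in all 4. The same count was not made over all genes, so it does not set the members apart from other genes. In bulk samples, fewer cells of a type and less RNA per cell cannot be told apart.

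At E17 the same comparison gave 37 members higher and 2 lower, and 43 did not pass. Over all genes, 26.5% were higher and 26.1% lower at E17. The median member difference was 0.18 and that of all tested genes was -0.01. The members called higher at both stages numbered 29, which is 56.9% of those called at E13 and 78.4% of those called at E17. Over all tested genes 2610 were called higher at both stages, 57.1% and 64.9%, so the E13 share of the members lay at that of all genes. The 2 comparisons use separate libraries, although 1 fit shares their spread. Without E17 endocardial replicate 2 or E17 coronary replicate 2, 1 member in place of 2 was called lower at E17, since Ndufa4l2 no longer passed.

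The summed CPM of all nuclear members showed the same separation. It was 6370, 6307, 6290 and 6303 CPM in the E13 endocardial libraries and 7678, 7192, 6878 and 7272 CPM in the E13 coronary libraries. At E17 it was 5970 and 6221 CPM in endocardial and 7184 and 7468 CPM in coronary libraries. The populations did not overlap at either stage. The coronary sum was 1.15 times the endocardial sum at E13 and 1.2 times at E17, and 1.11 and 1.15 times when the abundant genes Atp5a1 and Atp5b were left out. Within the batches the ratio was 1.21, 1.14, 1.09 and 1.15 at E13 and 1.2 in both E17 batches. Replicate 1 had the highest and replicate 3 the lowest member sum among the E13 coronary libraries, while their mural sums were 383 and 767 CPM and their fibroblast sums 5920 and 12200 CPM. What part the other cell types had in these sums was not tested. Without coronary replicate 1 the E13 counts were 50 higher and 3 lower, beside 30.8% and 27.6% of all genes. Without coronary replicate 3 they were 53 and 2, beside 31.2% and 27.7%.

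**Figure D1:**
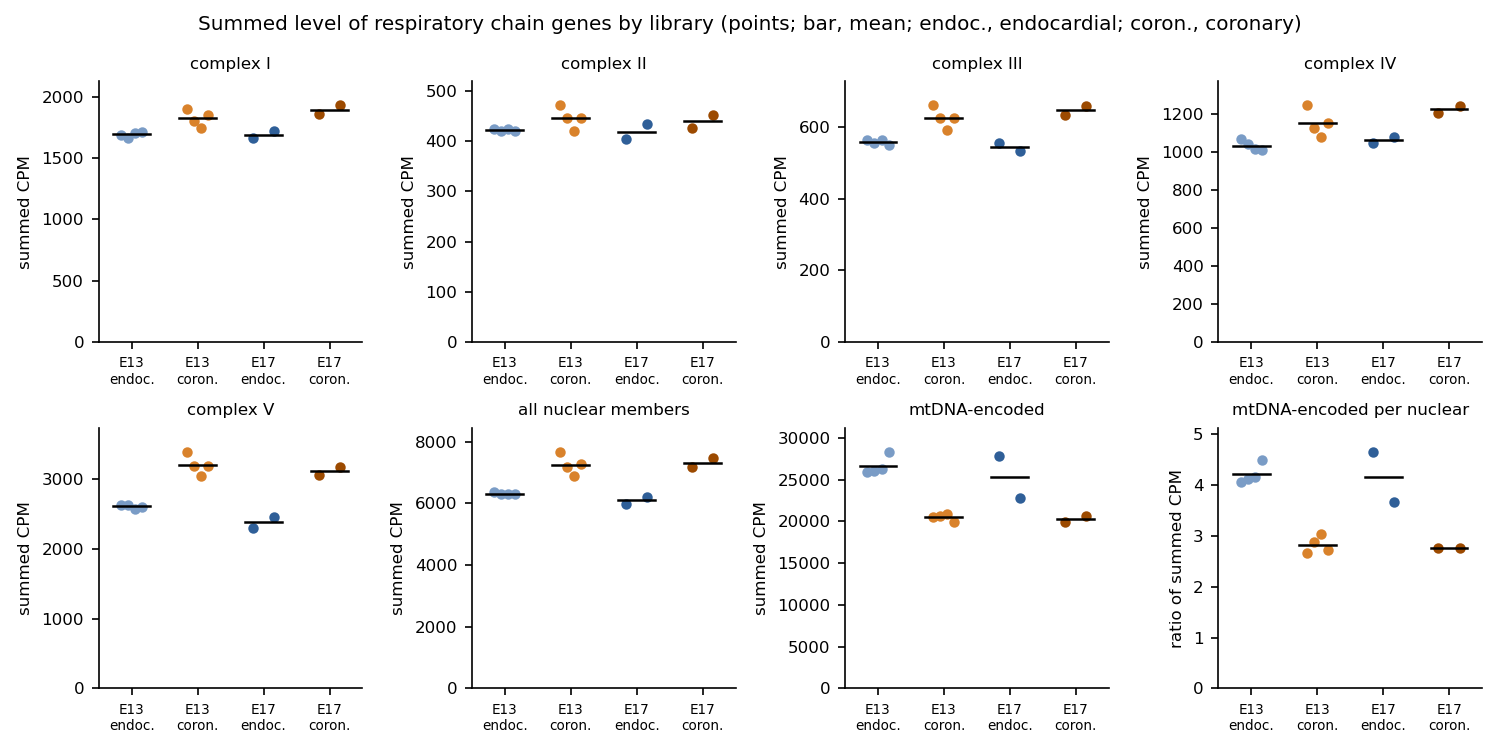
Summed CPM of the members of each complex, and of the 13 mitochondrial DNA-encoded subunits, in each of the 12 libraries by group. For complex V the E13 coronary libraries, at 3049 to 3396 CPM, all sit above the E13 endocardial libraries, at 2580 to 2631 CPM, while the mitochondrial DNA-encoded sum is lower in coronary libraries at both stages.

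By complex, the coronary sum exceeded the endocardial sum most for complex V, 1.23 times at E13 and 1.31 times at E17. The ratios were 1.08 and 1.12 for complex I, 1.12 and 1.19 for complex III and 1.11 and 1.15 for complex IV. For complex II they were 1.05 at both stages, and there the libraries of the populations overlapped. The order of the complexes was not tested. At E13 the members higher were 20 of 37 in complex I, 2 of 4 in complex II, 6 of 8 in complex III, 11 of 16 in complex IV and 12 of 17 in complex V. At E17 they were 15, 1, 4, 6 and 11 of the same members. Over all genes 30.1% were higher at E13 and 26.5% at E17. The E17 share of complex II, 25%, thus lay near that of all genes, and those of complexes I and IV were 40.5% and 37.5%. Called lower were 1 member each of complexes I, IV and V at E13, and 2 of complex I at E17.

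**Figure D2:**
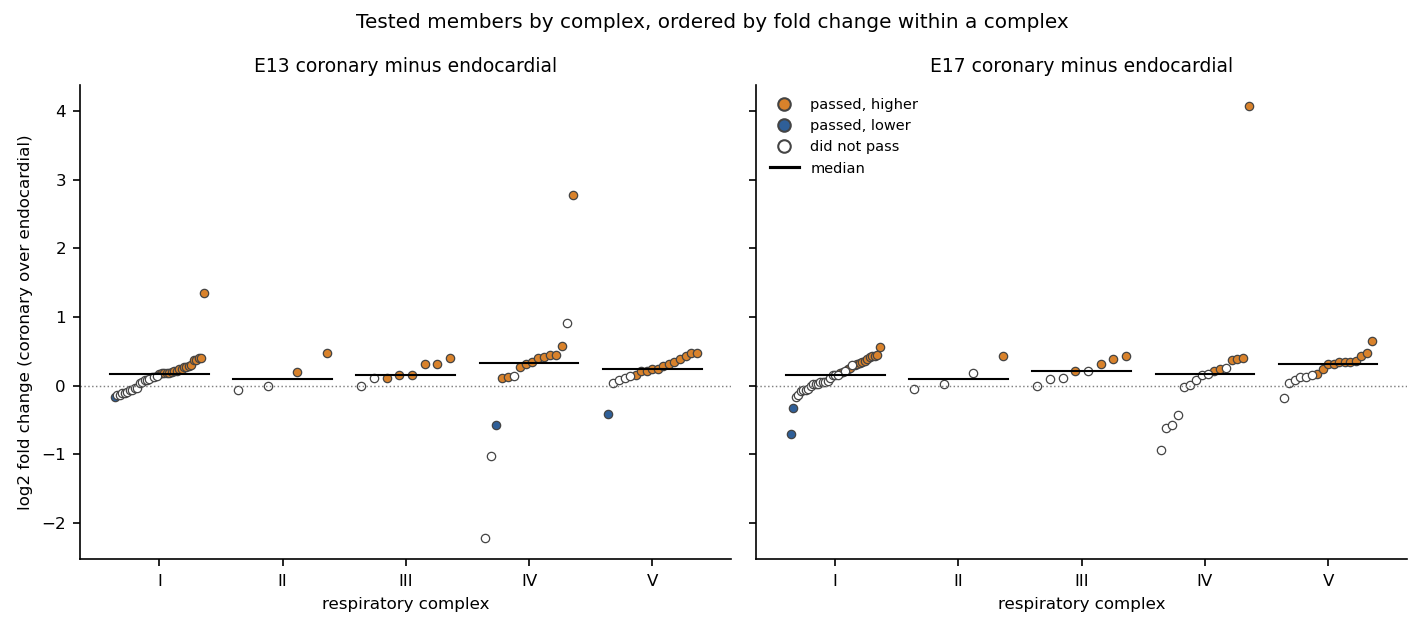
Log2 fold change, coronary over endocardial, of each tested member at E13 and E17, grouped by complex and marked by whether it passed the test. Most members lie above 0 in every complex, with Cox4i2 at 2.78 (E13) and 4.07 (E17) far from the rest.

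Complex I takes electrons from NADH. Its matrix arm carries the catalytic core, in which Ndufv1 and Ndufv2 bind NADH and an iron-sulfur centre, and Ndufs1 and Ndufs8 hold further iron-sulfur centres. Of the 7 core genes, 2 rose at E13 (Ndufs1 by 0.25 ± 0.05 and Ndufv2 by 0.19 ± 0.05, log2 fold change ± SE) and the median of the 7 was -0.03, so their share was near the 30.1% of all genes called higher. At E17, 5 of the 7 rose, with a median of 0.26, beside 26.5% of all genes. The E17 call of Ndufs8 was lost in 4 of 19 alternatives and that of Ndufs1 in 1. Exons of Ndufs1 overlap those of Eef1b2 on the other strand, which had 96727.7 counts over the libraries against 19507.09 for Ndufs1. The counts of Ndufs1 were fractional in all 12 libraries, and reads of the 2 genes cannot be told apart by strand. Of the 28 accessory subunits, 16 rose and 1 fell at E13, and 10 rose and 1 fell at E17. Their shares higher were 57.1% and 35.7%, beside 30.1% and 26.5% of all genes.

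Among complex I members with at least 10 CPM, the accessory subunit Ndufa8 (chr2:36036326-36049406, minus strand, GRCm38) had the largest E13 difference. It stood at 49.2, 46.6, 52.2 and 48.2 CPM in the endocardial and at 73.2, 62.5, 57.7 and 66.9 CPM in the coronary libraries of E13, and at 51.7 and 54.9 CPM against 78.2 and 79.5 CPM at E17. The populations did not overlap at either stage. The log2 differences were 0.41 ± 0.07 (edgeR adjusted p = 0.00023) and 0.57 ± 0.10 (adjusted p = 0.000342).

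Ndufa6 (chr15:82350140-82354322, minus strand), an accessory subunit of the matrix arm, was lower in coronary libraries at E17 by 0.32 ± 0.06 (log2, edgeR adjusted p = 0.00119). It stood between 36.9 and 40.4 CPM in all 8 E13 libraries. The E17 libraries gave 54.6 and 51.5 CPM in endocardial and 44.4 and 40.7 CPM in coronary libraries. The endocardial E17 libraries were thus the high ones.

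Complex II, which also works in the tricarboxylic acid cycle, has 4 subunits. Sdhb, the iron-sulfur subunit (chr4:140961203-140979193, plus strand), was at 54.9, 55.8, 56.1 and 53.3 CPM in the endocardial and 76.2, 79.9, 72.9 and 78.5 CPM in the coronary libraries of E13. In the later libraries it was at 49.1 and 52.5 CPM against 65.0 and 71.6 CPM. The populations were apart at both stages, by 0.48 ± 0.05 (edgeR adjusted p = 3.03e-06) and 0.43 ± 0.07 (adjusted p = 0.000203). Sdha, the flavoprotein that oxidizes succinate and the highest of the 4 per kilobase of transcript, did not pass at either stage. Its values were 236, 230, 233 and 235 CPM against 238, 228, 212 and 220 CPM in the coronary libraries at E13, and 212 and 234 CPM against 205 and 225 CPM at E17. These overlapped throughout, with log2 differences of -0.06 ± 0.05 and -0.05 ± 0.07. Sdhd, a membrane anchor, rose at E13 (0.20 ± 0.05, adjusted p = 0.00447). Sdhc, the other anchor, was at 0.00 ± 0.05 at E13 and did not pass at E17 either (0.18 ± 0.07, adjusted p = 0.0516).

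Complex III moves electrons from reduced coenzyme Q to cytochrome c. Its Rieske iron-sulfur protein Uqcrfs1 (chr13:30540308-30545362, minus strand) was at 45.4, 41.7, 44.5 and 45.3 CPM in the endocardial and 64.0, 57.8, 52.7 and 58.2 CPM in the coronary libraries of E13. At E17 it was at 44.1 and 42.3 CPM against 57.3 and 59.3 CPM. The groups did not overlap, and the differences were 0.40 ± 0.06 and 0.43 ± 0.08 (edgeR adjusted p = 8.38e-05 and 0.000836). The core protein Uqcrc2 was at 115, 113, 115 and 112 CPM against 127, 124, 116 and 124 CPM at E13, and at 112 and 106 CPM against 140 and 145 CPM at E17. It rose by 0.11 ± 0.04 at E13 (adjusted p = 0.0313, and 0.0526 with the batch as a block) and by 0.39 ± 0.06 at E17 (adjusted p = 8.33e-05). Without E13 endocardial replicate 2, 3 or 4 the E13 call of Uqcrc2 was lost as well, with adjusted p up to 0.0963 over its alternatives. Uqcrh, the hinge protein and the highest complex III member per kilobase, did not pass at E13 (75.3 to 79.0 CPM in endocardial and 75.6 to 79.6 CPM in coronary libraries, 0.00 ± 0.05) nor at E17 (88.0 and 77.4 CPM against 88.6 and 90.4 CPM, 0.11 ± 0.06).

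Complex IV is cytochrome c oxidase, and its catalytic subunits come from mitochondrial DNA. Of its 10 general nuclear subunits, 9 rose at E13 with a median of 0.32, and 5 at E17 with a median of 0.24. Of all genes, 30.1% and 26.5% were called higher. Cox5a, which lies on the matrix side (chr9:57521274-57532426, plus strand), was at 39.2, 36.5, 33.3 and 33.5 CPM in the endocardial and 61.7, 51.6, 49.5 and 50.9 CPM in the coronary libraries of E13. Its E17 levels were 35.0 and 33.8 CPM against 44.9 and 46.4 CPM. Its populations were apart at both stages (0.58 ± 0.08, edgeR adjusted p = 3.07e-05, and 0.41 ± 0.11, adjusted p = 0.00748).

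Complex V has a catalytic F1 head in the matrix and a proton-driven c ring in the membrane. Atp5b, the catalytic beta subunit (chr10:128083273-128090391, plus strand), was the highest of all members per kilobase, with 423 CPM per kilobase as a mean over the libraries. It was at 713, 722, 677 and 685 CPM in the endocardial and 1056, 963, 896 and 965 CPM in the coronary libraries of E13. The E17 libraries gave 591 and 634 CPM against 945 and 974 CPM. Every coronary library exceeded every endocardial library, over both stages. The log2 differences were 0.47 ± 0.05 (edgeR adjusted p = 8.79e-06) and 0.65 ± 0.07 (adjusted p = 1.47e-05).

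The c ring is built from 1 mature protein that 3 genes encode. Atp5g3 (chr2:73908447-73911326, minus strand) was at 145, 144, 135 and 137 CPM in the endocardial and 212, 194, 184 and 191 CPM in the coronary libraries of E13, and at 123 and 133 CPM against 175 and 169 CPM at E17. It was higher in coronary libraries at both stages (0.48 ± 0.05, edgeR adjusted p = 5.52e-06, and 0.43 ± 0.07, adjusted p = 0.000311). Per kilobase, Atp5g3 made up 36% of the 3 genes' signal in endocardial and 40.3% in coronary libraries at E13, while Atp5g2 made up 48.3% and 42.7%. Of the 8 stalk and membrane subunits, 6 rose at E13 and 6 at E17, beside 30.1% and 26.5% of all genes. Atp5s, a low-level coupling factor, was the complex V member that fell at E13 (-0.41 ± 0.13, adjusted p = 0.0136).

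The start regions of 68 of the 84 members were matched in RefSeq (GRCm38.p6), each as a window from 250 bases before to 50 after a start. They were searched on both strands for exact letters known from promoters of such genes. The NRF1 motif GCGCATGCG was in the windows of 8 members (11.8%) and of 2.0% of all 27025 genes, and the YY1 motif AAGATGGC in 10 (14.7%) and 3.2%. The shares were 7.4% and 4.3% for the GABPA/ETS motif CCGGAAGT, 41.2% and 38.2% for the SP motif GGGCGG, 26.5% and 21.8% for the hypoxia element ACGTG, and 2.9% and 0.5% for the ERR motif TCAAGGTCA. All members are protein-coding, and among protein-coding genes alone the shares were 2.6% for NRF1, 3.6% for YY1, 5.7% for GABPA/ETS, 49.2% for SP, 23.2% for the hypoxia element and 0.4% for ERR. The SP share of the members was thus above that of all genes and below that of protein-coding genes. Of the 10 members with the YY1 letters 7 belong to complex I, as do 32 of the 68 matched members. The following stretches lie before the start of a member that rose in E13 coronary libraries and hold no annotated exon. They are shown because each carries an NRF1, GABPA/ETS or ERR match, in capitals, in a member of complex III, IV or V.
Cox6a1: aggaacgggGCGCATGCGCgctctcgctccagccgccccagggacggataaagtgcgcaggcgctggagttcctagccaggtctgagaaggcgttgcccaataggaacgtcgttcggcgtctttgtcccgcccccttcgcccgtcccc
Atp5l: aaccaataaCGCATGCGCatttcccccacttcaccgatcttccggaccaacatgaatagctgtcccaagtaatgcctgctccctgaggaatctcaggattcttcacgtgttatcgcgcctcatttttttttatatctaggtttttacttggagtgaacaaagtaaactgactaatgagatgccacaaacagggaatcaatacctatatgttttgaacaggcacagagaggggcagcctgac
Uqcr11: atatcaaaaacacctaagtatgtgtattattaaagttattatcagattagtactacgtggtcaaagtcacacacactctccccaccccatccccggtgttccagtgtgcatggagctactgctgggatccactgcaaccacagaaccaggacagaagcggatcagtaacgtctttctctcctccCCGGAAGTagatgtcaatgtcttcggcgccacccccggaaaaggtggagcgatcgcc
Atp5g3: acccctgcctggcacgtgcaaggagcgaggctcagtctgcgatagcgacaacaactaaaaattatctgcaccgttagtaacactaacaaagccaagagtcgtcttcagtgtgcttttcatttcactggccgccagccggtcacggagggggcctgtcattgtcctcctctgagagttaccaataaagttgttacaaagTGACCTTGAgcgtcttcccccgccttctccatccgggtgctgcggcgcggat
They lie at chr5:115348982-115349129 (Cox6a1), chr9:44920752-44920992 (Atp5l), chr10:80406831-80407071 (Uqcr11) and chr2:73911327-73911576 (Atp5g3), all on the minus strand. The capitals mark NRF1 in Cox6a1, where matches on both strands overlap, and in Atp5l, GABPA/ETS in Uqcr11 and ERR in Atp5g3. Uqcr11 also has an NRF1 match at its start, beyond the stretch shown. The other letters searched are left in lower case. In E13 coronary against endocardial libraries Cox6a1 rose by 0.45 ± 0.10, Atp5l by 0.28 ± 0.04, Uqcr11 by 0.16 ± 0.05 and Atp5g3 by 0.48 ± 0.05. At E17 Atp5g3 passed again, and the differences of Cox6a1 (0.16 ± 0.14), Atp5l (0.04 ± 0.06) and Uqcr11 (-0.00 ± 0.06) did not.

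Cox4i2 (chr2:152754173-152765037, plus strand) encodes the oxygen-responsive isoform of complex IV subunit 4, and Cox4i1 the general one. Cox4i2 was at 0.301, 0.384, 0.350 and 0.238 CPM in the endocardial and 1.51, 1.73, 3.23 and 2.45 CPM in the coronary libraries of E13. In the later libraries it was at 0.437 and 0.389 CPM against 6.38 and 7.73 CPM. All coronary libraries were above all endocardial libraries. The group counts were 27 and 178 at E13 and 14 and 222 at E17, which gives pooled CPM ratios of 7.49 (exact 95% interval 4.98 to 11.7) and 17.2 (10.1 to 32.0), intervals that cover counting error only. The fitted log2 differences were 2.78 ± 0.29 and 4.07 ± 0.41. They are given as a description, with no test, since Cox4i2 passed the filter on low counts only through the coronary libraries. Within coronary libraries Cox4i2 rose from E13 to E17 by 1.66 ± 0.28 (adjusted p = 0.000344).

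Cox4i1 (chr8:120668222-120674207, plus strand) remained by far the main isoform in every group. It was at 215, 215, 219 and 218 CPM in the endocardial and 241, 244, 219 and 237 CPM in the coronary libraries of E13, and at 208 and 229 CPM against 279 and 295 CPM at E17. Per kilobase, Cox4i2 made up 0.150%, 0.975%, 0.194% and 2.45% of the 2 isoforms on average in E13 endocardial, E13 coronary, E17 endocardial and E17 coronary libraries. Cox4i1 was higher in coronary libraries at E17 (0.39 ± 0.07, edgeR adjusted p = 0.000298). Its E13 difference (0.12 ± 0.05, adjusted p = 0.0408) no longer passed without any 1 of the E13 endocardial replicates, with adjusted p up to 0.0852 over its alternatives. The mural sum was also higher in coronary libraries, at 383, 619, 767 and 544 CPM at E13 and 1120 and 860 CPM at E17. Among the E13 coronary libraries, replicate 1 was lowest and replicate 3 highest for both the mural sum and Cox4i2. The other E13 coronary libraries stood in opposite order for the mural sum and Cox4i2. At E17 the coronary library with the lower mural sum had the higher Cox4i2 level. The part of mural cells in the Cox4i2 difference was not tested.

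**Figure D3:**
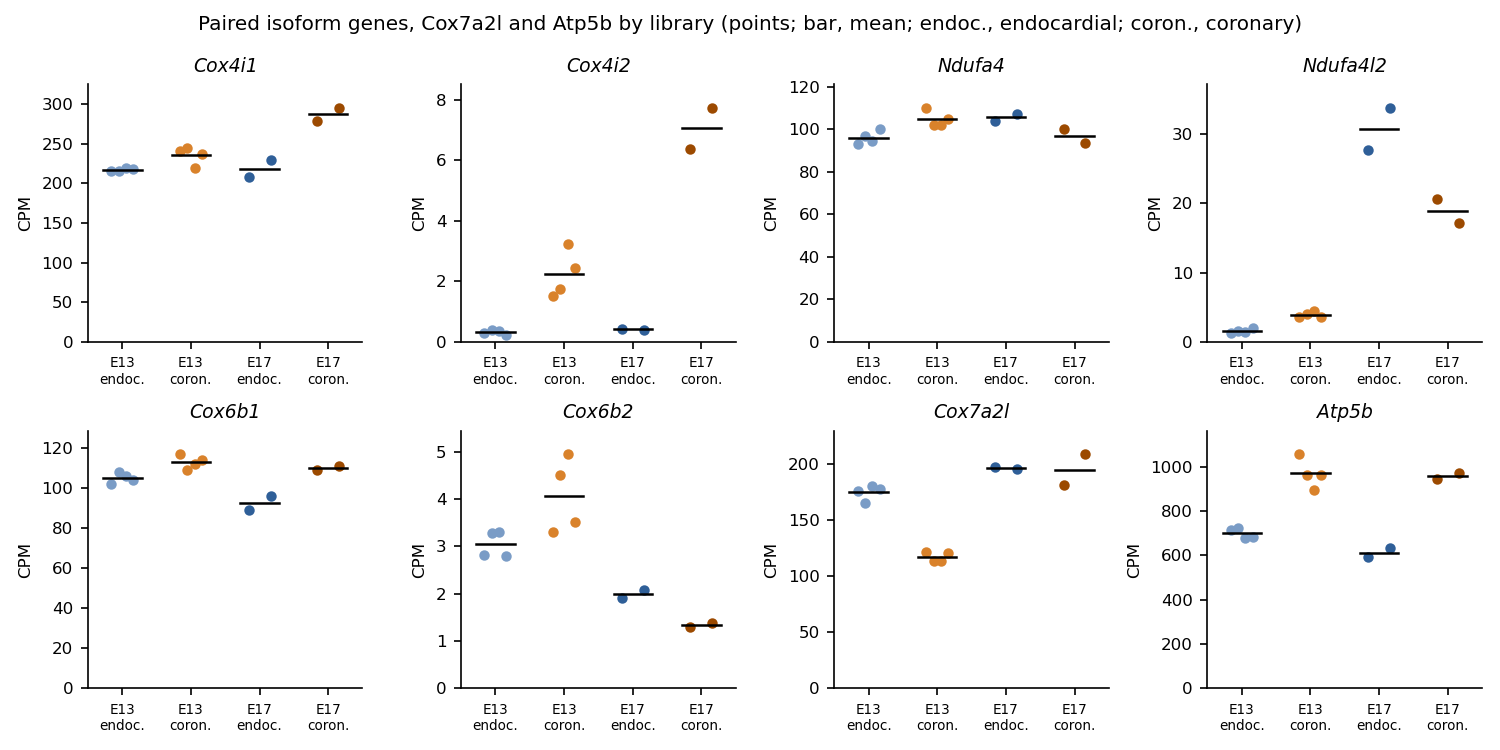
CPM of 8 members in each library by group, on a separate axis for each gene. Cox4i2 is higher in every coronary library, Ndufa4l2 is highest in the E17 endocardial libraries at 27.7 and 33.8 CPM, and Cox7a2l is lowest in the E13 coronary libraries at 114 to 122 CPM.

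Ndufa4l2 (chr10:127514967-127517154, plus strand) is a hypoxia-responsive relative of Ndufa4. The symbol places both in complex I, although the Ndufa4 protein is known as a subunit of complex IV. Ndufa4l2 was at 1.28, 1.63, 1.35 and 1.96 CPM in the endocardial and 3.62, 3.98, 4.49 and 3.63 CPM in the coronary libraries of E13. At E17 it was at 27.7 and 33.8 CPM in endocardial and 20.6 and 17.1 CPM in coronary libraries. The coronary libraries were thus the higher ones at E13 and the lower ones at E17, and it was the only member called in opposite directions at the 2 stages. The differences were 1.35 ± 0.16 (edgeR adjusted p = 1.12e-05) and -0.71 ± 0.18 (adjusted p = 0.00477), and they differed from each other by -2.06 ± 0.24 (adjusted p = 4.22e-05). The E17 call alone was lost without E17 endocardial replicate 2 or E17 coronary replicate 2, with adjusted p up to 0.0606.

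Ndufa4l2 rose with stage in both populations, by 4.31 ± 0.16 in endocardial (edgeR adjusted p = 2.91e-08) and 2.26 ± 0.15 in coronary libraries (adjusted p = 3.13e-07). Per kilobase it went from 1.04% of the Ndufa4 and Ndufa4l2 signal in E13 endocardial to 15.9% in E17 endocardial libraries, and from 2.40% to 11.3% in coronary libraries. Markers of other cells differed in both directions between the endocardial stages. The mural sum was lower at E17 (177 and 178 CPM), with 1 marker higher and 1 lower of 11. Of the 10 fibroblast markers 4 were higher and 2 lower at E17, with Dcn at 2.55 to 3.72 CPM at E13 and 125 and 136 CPM at E17, and the fibroblast sum was lower. Of the 5 tested leukocyte markers 4 were higher, and the sum of all 9 went from 7.9 to 11.6 CPM at E13 to 23 and 14.5 CPM at E17. C1qa and C1qb passed the filter on low counts only through the E17 endocardial libraries, so the leukocyte count is a description, with no test. Over all genes 16.2% were higher and 15.6% lower at E17 in endocardial libraries. The part of mural, fibroblast and leukocyte cells in the rise of Ndufa4l2 was not tested. Exons of Ndufa4l2 overlap those of Shmt2 on the other strand, which had 14030 counts over the libraries against 2057 for Ndufa4l2, and reads of the 2 genes cannot be told apart by strand. Ndufa4 itself was at 93.2, 96.6, 94.2 and 100 CPM in the endocardial and 110, 102, 102 and 105 CPM in the coronary libraries of E13, and at 104 and 107 CPM against 99.9 and 93.3 CPM at E17. It rose at E13 by 0.12 ± 0.04 (adjusted p = 0.0262), a call lost without E13 endocardial replicate 1 or 3 (adjusted p up to 0.0728), and did not pass at E17 (-0.13 ± 0.06, adjusted p = 0.0968).

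Cox7a2l (chr17:83501918-83517330, minus strand) encodes a factor that joins complexes III and IV into supercomplexes. It was at 176, 166, 181 and 178 CPM in the endocardial and 122, 114, 114 and 121 CPM in the coronary libraries of E13. Its E17 levels were 198 and 196 CPM against 182 and 209 CPM. The E13 coronary libraries were the low ones, apart from all the others. The coronary difference was -0.57 ± 0.05 (edgeR adjusted p = 1.14e-06) in the E13 and -0.02 ± 0.07 (adjusted p = 0.877) in the E17 libraries, and the change between stages was tested at 0.56 ± 0.09 (adjusted p = 0.000404). It was the one member called lower at E13 in each of the 19 alternatives run.

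The other isoform pairs of complex IV lay far apart in level. Cox6b2, the testis isoform of subunit 6b, was at 2.82, 3.27, 3.30 and 2.79 CPM against 3.30, 4.50, 4.94 and 3.52 CPM in the coronary libraries at E13, and at 1.91 and 2.07 CPM against 1.3 and 1.38 CPM at E17. It was thus lowest at E17, and fell with stage in coronary libraries by 1.60 ± 0.23 on the log2 scale (edgeR adjusted p = 0.000109). Its E13 call (0.42 ± 0.16, adjusted p = 0.0429) was lost in 12 of 19 alternatives, with adjusted p up to 0.118. Its partner Cox6b1 was at 102, 108, 106 and 104 CPM against 117, 109, 112 and 114 CPM at E13, and at 89.0 and 96.0 CPM against 109 and 111 CPM at E17. Its E13 difference of 0.11 ± 0.04 (adjusted p = 0.0368, and 0.0621 with the batch as a block) was the smaller, and its E17 difference was 0.25 ± 0.06 (adjusted p = 0.00274). The E13 call of Cox6b1 was lost in 7 of 19 alternatives, among them upper-quartile scaling and the fits without E13 endocardial replicate 1, 3 or 4.

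The muscle isoforms Cox6a2, Cox7a1 and Cox8b stayed at or below 1.3 CPM in every library. Cox6a2 had 75, 33, 38 and 18 counts, Cox7a1 29, 51, 35 and 24, and Cox8b 12, 2, 25 and 15, in E13 endocardial, E13 coronary, E17 endocardial and E17 coronary libraries together. Cox6a2 was at 1.05, 0.769, 1.3 and 0.297 CPM against 0.703, 0.130, 0.605 and 0.267 CPM in the coronary libraries at E13, and at 1.04 and 1.23 CPM against 0.892 and 0.299 CPM at E17. Cox7a1 was at 0.413, 0.528, 0.250 and 0.119 CPM against 0.649, 0.476, 1.01 and 0.427 CPM at E13, and at 1.2 and 0.843 CPM against 0.686 and 0.839 CPM at E17. Neither differed between populations by the test at either stage. Cox8b was at 0.225, 0.144, 0.150 and 0 CPM against 0, 0.0433, 0.0504 and 0 CPM at E13. Between stages its pooled CPM ratio was 5.02 in endocardial libraries (exact 95% interval 2.43 to 11), which is given with no test because the filter let Cox8b in only through the E17 endocardial libraries. In coronary libraries it rose from 2 to 15 counts (ratio 17.3, interval 4.02 to 156, edgeR adjusted p = 0.00304). At E17 Cox8b was at 0.819 and 0.648 CPM in endocardial and 0.480 and 0.479 CPM in coronary libraries. The general partners Cox6a1, Cox7a2, Cox7b and Cox8a all rose in E13 coronary libraries, by 0.45 ± 0.10, 0.41 ± 0.05, 0.31 ± 0.06 and 0.44 ± 0.13. Cox6a1 was at 108, 99.5, 88.1 and 83.9 CPM against 153, 124, 112 and 130 CPM at E13 and at 106 and 107 CPM against 124 and 113 CPM at E17. Cox7b was at 63.7, 66.9, 57.9 and 61.5 CPM against 82.3, 77.1, 76.6 and 74.0 CPM at E13 and at 56.4 and 63.8 CPM against 71.0 and 68.9 CPM at E17. For both, the E13 populations did not overlap. Cox7a2 was at 52.6, 53.0, 50.7 and 52.2 CPM against 73.2, 67.6, 64.8 and 71.2 CPM at E13 and 54.6 and 53.5 CPM against 71.5 and 68.9 CPM at E17, where it passed again (0.38 ± 0.07, adjusted p = 0.000385). Cox8a was at 68.1, 67.9, 56.4 and 47.3 CPM against 105, 75.4, 71.3 and 74.5 CPM at E13, so that 1 coronary library stood high, and it did not pass at E17 (0.26 ± 0.19).

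Fewer members were called between stages than between populations. In endocardial libraries 5 rose and 11 fell from E13 to E17, beside 16.2% and 15.6% of all genes. In coronary libraries 16 rose and 11 fell, beside 24.6% and 25.6% of all genes. The member medians were 0.01 and -0.00, against 0.00 and -0.02 over all genes. These counts depended on the scaling. With library totals and no scaling factor the median of all genes in the coronary comparison moved to -0.17, and 8 members were called higher and 34 lower, beside 17% and 36% of all genes. With upper-quartile scaling they were 13 and 22, beside 21.2% and 30% of all genes. In the endocardial comparison library totals gave 4 higher and 18 lower, beside 13.8% and 19.6% of all genes. Without E17 endocardial replicate 1 fewer members were called lower in endocardial libraries, and so were fewer of all genes. Without any 1 of the E13 endocardial libraries between 6 and 7 fell, beside 13.7% to 14.1% of all genes. Fewer members rose in endocardial libraries without either E17 endocardial library, as did a smaller share of all genes. Without E13 endocardial replicate 3, 3 rose, beside 14.3% of all genes. Fewer members rose in coronary libraries without E17 coronary replicate 2, and fewer fell without either E17 coronary library. The shares of all genes were smaller in those fits as well.

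The members called in both populations moved the same way: Ndufa4l2, Cox7a2l and Cox8b rose and Cox6b2 and Ndufs1 fell. Of these 5, Ndufa4l2 was called in both populations in every alternative. The endocardial calls of Cox6b2, Ndufs1 and Cox7a2l were lost in 13, 12 and 10 of 18 alternatives (edgeR or DESeq2 adjusted p up to 0.224, 0.418 and 0.202), and that of Cox8b is subject to the filter named above. In endocardial libraries the largest fall in complex V was that of Atp5o, the stalk subunit that links head and membrane (chr16:91925214-91931687, minus strand). It went from 114, 116, 116 and 116 CPM at E13 to 95.2 and 96.0 CPM at E17, apart from 131 to 141 CPM in the 6 coronary libraries of both stages. Its fall was 0.27 ± 0.04 on the log2 scale (edgeR adjusted p = 0.000672). It was called in every alternative. Uqcrc1, a complex III core protein, fell by 0.25 ± 0.07 (adjusted p = 0.0128), but not without 1 of the E17 endocardial libraries (adjusted p up to 0.0915).

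In coronary libraries, Atp5g1 of the c ring fell from 70.6, 68.6, 62.3 and 73.6 CPM at E13 to 51.3 and 52.5 CPM at E17. This was 0.41 ± 0.08 on the log2 scale (edgeR adjusted p = 0.00112), and the E17 coronary values came within the E13 endocardial range of 47.9 to 54.9 CPM. Ndufa12, a late-joining complex I subunit, and Atp5mpl, a small membrane subunit of complex V, also fell in every alternative (by 0.27 ± 0.07 and 0.29 ± 0.06). Sdhc rose by 0.26 ± 0.06 (adjusted p = 0.00334, and up to 0.145 with library totals). Uqcrc2 rose by 0.21 ± 0.05 (adjusted p = 0.00251, and up to 0.288 with library totals).

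**Figure D4:**
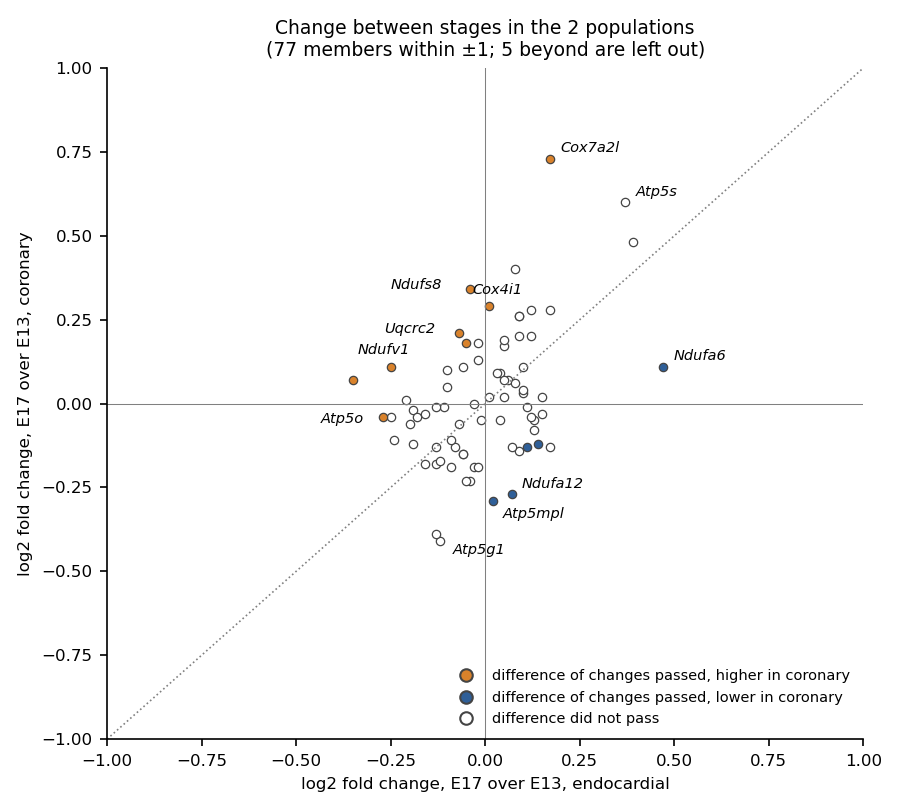
Log2 change from E13 to E17 in coronary libraries against that in endocardial libraries for the 77 tested members within 1 log2 unit on both axes; the 5 left out are Cox4i2, Cox6b2, Cox7a1, Cox8b and Ndufa4l2. Ndufa6 stands to the right (0.47 in endocardial libraries) and Cox7a2l at the top (0.73 in coronary libraries).

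The population difference itself changed between stages for 15 members, 8 upwards and 7 downwards, beside 16.2% and 16.5% of all genes. Upwards means that the coronary excess was larger at E17. Of the 7 catalytic core genes of complex I, 3 were among them, including Ndufv1 (0.37 ± 0.09, edgeR adjusted p = 0.00881) and Ndufs8 (0.37 ± 0.11, adjusted p = 0.0167). The calls of Ndufv1 and Ndufs8 were lost without E17 endocardial replicate 1 or E17 coronary replicate 2, with adjusted p up to 0.0594 and 0.0922. Cox7a2l, Ndufa4l2 and Ndufa6 (-0.36 ± 0.08, adjusted p = 0.0042) were called in every alternative. Fewer members were called in each direction without E17 endocardial replicate 1 or without E17 coronary replicate 2, and so were fewer of all genes. With library totals 4 were called upwards and 12 downwards, beside 11.7% and 19.9% of all genes.

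Of the 13 subunits encoded in mitochondrial DNA, 8 were lower in coronary libraries at E13, with a median of -0.35, and 8 at E17, with a median of -0.44. This compares with 29.9% and 26.1% of all genes called lower. The other 5 did not pass at each stage, among them mt-Atp6 at E13 (0.09). Their summed CPM was 25954, 26011, 26224 and 28334 in the endocardial and 20518, 20689, 20811 and 19871 in the coronary libraries of E13. At E17 it was 27820 and 22815 CPM against 19886 and 20583 CPM. The populations did not overlap at either stage. Each CPM of the nuclear sum was matched by 4.07, 4.12, 4.17 and 4.50 CPM of the mitochondrial sum in the endocardial and by 2.67, 2.88, 3.03 and 2.73 CPM in the coronary libraries of E13, and by 4.66 and 3.67 CPM against 2.77 and 2.76 CPM at E17.

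By the smallest adjusted p, the complex I subunits mt-Nd4 and mt-Nd5 stood first at both stages. mt-Nd4 was at 2374, 2279, 2266 and 2680 CPM in the endocardial and 1573, 1499, 1560 and 1642 CPM in the coronary libraries of E13, and at 2254 and 1975 CPM against 1549 and 1504 CPM at E17. The differences were -0.61 ± 0.06 (edgeR adjusted p = 4.03e-06) and -0.47 ± 0.09 (adjusted p = 0.0007). mt-Nd5 was lower by 0.65 ± 0.07 and 0.50 ± 0.10 on the log2 scale. mt-Co1, the catalytic subunit of complex IV, was lower at E13 (-0.51 ± 0.06, adjusted p = 2.01e-05) and did not pass at E17 (-0.22 ± 0.09, adjusted p = 0.0546). The E17 count was 5 without E17 endocardial replicate 1 or without E17 coronary replicate 1. The libraries were made from polyadenylated RNA, and how well mitochondrial transcripts were captured in each library was not tested.

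Lists of genes around the chain were counted in the same comparisons, in which 30.1% of all genes were higher and 29.9% lower at E13, and 26.5% and 26.1% at E17. Of 9 electron carriers and feeders, 3 rose and 2 fell at E13 and 5 rose at E17, so that the E13 share called higher was near that of all genes. They included cytochrome c itself, Cycs, at 31.3, 31.4, 30.6 and 29.4 CPM against 56.1, 56.9, 47.1 and 45.7 CPM at E13 and at 24.3 and 27.8 CPM against 38.3 and 41.9 CPM at E17 (0.74 ± 0.08, edgeR adjusted p = 5.42e-06, and 0.63 ± 0.11, adjusted p = 0.000599). The glycerol-3-phosphate dehydrogenase Gpd2 rose by 0.74 ± 0.08 and 1.14 ± 0.11. Etfb, which carries electrons from fatty acid oxidation, fell at E13 (-0.43 ± 0.07). Of 19 tricarboxylic acid cycle genes, 9 rose and 2 fell at E13 and 11 rose and 1 fell at E17.

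Idh2, the mitochondrial NADP-dependent isocitrate dehydrogenase, stood at 203 to 241 CPM in all 8 E13 libraries, and at 132 and 147 CPM in E17 endocardial against 278 and 282 CPM in E17 coronary libraries. Its population difference was larger at E17 by 0.89 ± 0.08 (edgeR adjusted p = 9.88e-06). Of the 9 tested carriers of ATP, phosphate and protons, 6 rose and 2 fell at E13, among them the ADP/ATP carrier Slc25a5 (0.50 ± 0.06, and 0.69 ± 0.08 at E17). Of 11 cristae genes, 5 rose at E13 and 6 at E17, with Immt at 0.31 ± 0.04 and 0.37 ± 0.06.

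Of 15 complex I assembly factors, 3 rose and 3 fell at E13, and 2 fell at E17. Of 24 for complex IV, 5 rose and 4 fell at E13, and 5 rose and 3 fell at E17, with the copper chaperone Cox17 higher at E13 (0.69 ± 0.07) and Coa3 at E17 (0.67 ± 0.08). In both of these lists the shares called lay below those of all genes in each direction. Of 4 for complex II, 2 fell at each stage. Of 20 regulators of mitochondrial biogenesis, 6 rose and 1 fell at E13, and 5 rose and 4 fell at E17, so that the shares called higher were near those of all genes. Ppargc1b, a coactivator of mitochondrial genes, rose at both (1.49 ± 0.27 at E13, edgeR adjusted p = 0.000388), at 0.800 to 1.92 CPM in the endocardial and 3.09 to 3.85 CPM in the coronary libraries of E13. Perm1, a muscle regulator, was lower at both (-1.54 ± 0.23 and -1.42 ± 0.32).

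Of 12 genes linked to low oxygen, a list that holds Cox4i2 and Ndufa4l2, 10 rose at E13 with a median of 1.13, and 8 rose and 1 fell at E17 with a median of 0.69. The one that fell was Ndufa4l2. Vegfa, the endothelial growth factor, and Pdk1, which keeps pyruvate from mitochondrial oxidation, had the smallest adjusted p of the list at E13 (1.69 ± 0.11, edgeR adjusted p = 9.15e-08, and 1.3 ± 0.12, adjusted p = 1.36e-06), although Cox4i2, Bnip3 (1.91) and Egln3 (1.84) had larger differences than either. The mitophagy gene Bnip3 was at 7.82, 9.17, 7.35 and 9.22 CPM against 35.7, 34.9, 27.1 and 28 CPM at E13 and at 21.8 and 25.8 CPM against 39.4 and 79.4 CPM at E17. All coronary libraries were above the endocardial libraries of their stage.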

How the data were processed

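Endothelial cells of 4 groups were measured in 12 libraries. Per the labels' protocols, freshly sorted cells gave RNA by a PicoPure kit, poly(A) RNA was taken, and NEBNext Ultra libraries without strand information were read from 1 end. The authors deposited expected counts for each gene; 18.31% of the values have a fractional part. The submitters' processing notes name CASAVA 1.8.2, cutadapt 1.3, RSEM 1.2.3 and build GRCm38; settings: not given in the sources used here. Between near-identical copies, RSEM splits reads by an estimate, so the level of Ndufb4 (with its processed pseudogene Ndufb4c at 19.0 to 25.3 CPM) is uncertain.

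The members and the other lists were chosen with earlier results of these data known. Expected counts were rounded, filtered with filterByExpr (minimum count 10, total 15) and scaled by TMM. The quasi-likelihood test of edgeR 4.0.16 (R 4.3.3) was used, in 1 fit of 4 group means over all libraries, with 8 residual degrees of freedom and a biological coefficient of variation of 0.126, and Benjamini-Hochberg adjustment over 15171 genes at 0.05. It was also tested on simulated data. No test over a list was made. CPM values use TMM-scaled totals, except pooled ratios with an interval, which use unscaled totals. CPM per kilobase divides by the length of 1 principal protein-coding transcript (GENCODE M21, GRCm38), and levels were compared between genes on that scale alone. Of the tested members, 43 had whole counts in all libraries; among these, 27 rose and 1 fell at E13, and 18 rose and 2 fell at E17. Replicates differed by more than counting noise (chi-square per gene 4.39 to 39.3), so each counted once.

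Values in every library are given for tissue isoform pairs, for the member of each complex with the largest change and at least 10 CPM in a comparison, and for the highest member per kilobase. Other members follow by smallest adjusted p, and genes of other lists up to 2 per direction by the same measure; mt-Co1, Bnip3, Atp5l and Uqcr11 were added after their values were seen. The counts include 1 member whose own values are not reported here. The batch label pairs the libraries: over 9481 genes, deviations from group means of the 2 libraries of a batch correlated at 0.274, 0.628, 0.287 and 0.45 at E13 and 0.337 at E17, which is across genes, not replicates. Alternatives were other scalings, no filter, DESeq2 1.42.0, a fit of the compared groups only, the batch as a block, and each library left out.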

Additional observations from a re-analysis of the deposited data

Results flagged for a closer look

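In 7 of 180 groups of 4 libraries examined, 1 library stood apart by Dixon's 95% criterion on the gap to the nearest library, which chance alone gives in about 1 in 20 groups. E13 coronary replicate 1 was high for Cox8a (105 CPM) and Ndufa9 (70.4 CPM). E13 endocardial replicate 4 was low for Atp5s (4.64 CPM), and stood apart for Ndufb10 (39.8 CPM) and for the summed mitochondrial DNA-encoded genes (28334 CPM, the highest of its group). E13 endocardial replicate 3 stood apart for Ndufs3 (52.5 CPM) and replicate 2 for Uqcrh (75.3 CPM).

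For 15 members the population difference changed between stages by the edgeR interaction test. Among these, the change on the log2 scale was 0.56 for Cox7a2l, 0.37 for Ndufs8 and for Ndufv1, 0.28 for Uqcrc2, 0.27 for Cox4i1, and 0.23 for Atp5o and for Ndufb8. It was -2.06 for Ndufa4l2, -0.99 for Cox6b2, -0.36 for Ndufa6, -0.34 for Ndufa12, -0.31 for Atp5mpl, and -0.25 for Atp5l and for Ndufa4. Of 18 alternatives, the call was lost in 13 for Ndufb8, 8 for Cox6b2 and 4 for Atp5o. It was lost in 3 each for Cox4i1, Atp5l, Atp5mpl and Ndufa4, in 2 each for Ndufa12, Ndufs8 and Ndufv1, and in 1 for Uqcrc2.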

How the results depend on the processing

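No call of a member reversed in any alternative. At E13, 43 of the 51 members called higher passed in every alternative, and at E17 24 of 37. Of those called lower, 1 of 3 and 1 of 2 did. The other calls were less firm. In endocardial libraries 2 of the 5 that rose with stage and 2 of the 11 that fell passed in every alternative. In coronary libraries these were 7 of 16 and 4 of 11. For the difference between stages they were 2 of 8 upwards and 2 of 7 downwards. The median member difference ran from 0.18 to 0.30 at E13 and from 0.12 to 0.20 at E17 across scalings. With library totals, 64 members were higher and 1 was lower at E13, beside 37.7% and 22.4% of all genes. In that setting 18 fell with stage in endocardial libraries, beside 19.6%, and 8 rose and 34 fell in coronary libraries, beside 17% and 36%. The difference between stages was then called upwards for 4 and downwards for 12, beside 11.7% and 19.9%. With upper-quartile scaling, 4 were lower at E17 and 22 fell in coronary libraries, beside 29.2% and 30% of all genes. Without the filter, 7 fell in endocardial libraries and 3 differences between stages were downwards, beside 8.94% and 9.13% of all genes. In a fit of the coronary groups alone, 7 fell, beside 23% of all genes. With 1 library left out, members higher and lower ran from 44 to 56 and 2 to 4 at E13, 25 to 41 and 1 to 2 at E17, 2 to 6 and 2 to 11 for the endocardial stage, 9 to 18 and 5 to 14 for the coronary stage, and 3 to 11 and 2 to 8 for the difference between stages. The lowest E17 count of members higher came without E17 endocardial replicate 1, where fewer of all genes were called higher as well. The shares of all genes also moved between these fits, at E13 from 27.9% to 31.2% higher and from 26.4% to 28.8% lower. They moved in the other comparisons too, so the ranges of counts do not describe the members alone. With the replicate block, counts were again 51 and 3 at E13, 37 and 2 at E17 and 8 and 7 for the difference between stages; the block ended the calls of Cox6b1 and Uqcrc2 at E13 and of Ndufb8 between stages (adjusted p = 0.0528), and no other member's call. No block could be fitted for the stage comparisons, since each batch holds 1 stage. With 2 libraries per group the E17 difference was less precise, with a median standard error over members of 0.08 against 0.056 at E13.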
